A study of Mus musculus with 5 samples.

Results

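The Notch pathway was followed through 10 genes that were chosen by symbol: the receptors *Notch1* and *Notch2*, the ligands *Dll1*, *Dll3*, *Jag1* and *Jag2*, and the transcription factors *Hes1*, *Hes5*, *Hes6* and *Hey1*. Of these, 9 were found among the 20224 genes of the count table, and *Hes1* was not analysed here. A test was possible for 8 of them, because *Hes5* had too few counts. Embryonic sympathetic neurons held abundant *Hes6* transcripts and few transcripts of *Notch1*, *Notch2* and *Hes5*. The 4 ligands were higher in mean in *Hif1aCKO* than in control neurons and *Hey1* was lower in mean, but no member passed the test of the genotype.

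Notch receptors are surface proteins that are cut when a Delta-like or Jagged ligand on a neighbouring cell binds them. The freed inner part of the receptor enters the nucleus, where it joins the DNA-binding protein RBPJ and switches on genes such as the *Hes* and *Hey* genes, whose products repress the factors that drive neuronal differentiation. In the neural crest lineage the pathway is known for holding cells back from neuronal differentiation and for favouring glia.

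The libraries were made from sympathetic ganglia of E14.5 mouse embryos from non-diabetic pregnancies, each from 100 sorted cells. There were 2 control libraries, numbered 5 and 6, and 3 *Hif1aCKO* libraries, numbered 3, 4 and 5. Control embryos were *Hif1a* loxP/+; Isl1Cre; tdTomatoAi14 and *Hif1aCKO* embryos were *Hif1a* loxP/loxP; Isl1Cre; tdTomatoAi14, and both also carried the *Prph*-eGFP transgene. Cells were sorted for eGFP, which the peripherin promoter drives in peripheral neurons, and for tdTomato, which is switched on wherever Cre from the *Isl1* locus has been active. Both groups thus carry Cre as a knock-in at *Isl1* and the controls carry 1 floxed *Hif1a* allele, so the comparison is of 2 floxed alleles against 1 in Cre-positive cells. The Cre line was kept on FVB and the floxed line on mixed C57BL/6J and C57BL/6N. The labels call each library a biological sample without saying whether each came from its own embryo, so the p-values measure the spread between these libraries, which may in part be technical.

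Total counts ranged from 8254211 to 9700887 per library, and all 13 sympathetic neuron markers, among them *Th* and *Dbh*, had counts in every library, with summed levels of 9884 to 13829 CPM (counts scaled to the size of the library). Both control libraries were higher in this sum, at 11472 and 13829 CPM, and 9 of the 13 markers were lower in *Hif1aCKO* neurons, 7 of them without overlap of the groups, where 12.9% of all genes tested were lower in this way. None of the 13 was called by edgeR's quasi-likelihood test, with 7 at an unadjusted p under 0.05, while 1 was called lower by DESeq2 and 2 by the likelihood ratio test. *Hif1a* itself had 2086 and 1584 normalized counts in control libraries 5 and 6, against 2747, 1757 and 2135 in *Hif1aCKO* libraries 3, 4 and 5 (log2 fold change 0.27, standard error 0.22, and 0.080 to 0.48 when 1 library was left out). The floxed segment is exon 2 only, so counts summed over the gene do not show its loss. Of 10 markers of Schwann cell precursors and glia, 7 were in the table. Their sum was 15.0 and 8.80 CPM in the controls, against 191, 14.6 and 10.3 in the *Hif1aCKO* libraries, so *Hif1aCKO* replicate 3 stood apart. It held 926 counts of *Fabp7* and 50 of *Erbb3*, whereas the other libraries held at most 9 and 2, and the defining marker *Sox10* had 8 counts there and 0 or 1 elsewhere. Endothelial markers (2 of 7 in the table) summed to 0.12 to 4.35 CPM, mesenchymal markers (5 of 8) to 0.42 to 3.00, and the 1 erythroid marker of 7, *Alas2*, to 0.95 to 3.54. Chromaffin cell markers (4 of 4) summed to 968 and 1287 CPM in the controls, against 356, 875 and 458 in the *Hif1aCKO* libraries, all below both controls. Nearly all of this sum was *Chga* and *Chgb*, whereas *Pnmt* had 3 to 55 counts per library and *Penk* 0 to 57. Of the 3 that could be tested, *Chgb* and *Pnmt* were lower without overlap (log2 fold changes -1.69 and -1.91), *Chga* had 0.0077, and none was called by edgeR or DESeq2. Stress genes of the dissociation response (10 of 11) summed to 213 to 316 CPM. S phase genes (12 of 12) summed to 2228 to 2862 CPM. The 20 G2/M phase genes summed to 4475 and 3745 CPM in the controls, against 5945, 7184 and 5676 in the *Hif1aCKO* libraries. All 20 were higher in mean in *Hif1aCKO* neurons, 17 of them without overlap of the groups, where 12.9% of all genes tested were higher in this way. By the thresholds given below, edgeR's quasi-likelihood test called none of the 20, with 16 at an unadjusted p under 0.05, limma-voom called 0, the likelihood ratio test 5 and DESeq2 8.

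Values of single libraries are given below in a fixed order, controls as replicates 5 and 6 and *Hif1aCKO* libraries as replicates 3, 4 and 5. Levels of different genes were compared as CPM per kilobase of exon, over all 5 libraries. *Hes6*, which encodes a Hes-like protein known to counteract *Hes1* and to accompany neuronal differentiation, had a mean of 54.4 and ranged from 46.9 to 63.6. Its lowest library was above the highest library of every other member, and its mean lay at percentile 92.3 of all genes tested. *Hey1*, a repressor induced by Notch, came next with 3.72 (1.08 to 6.88), followed by the ligands *Jag2* with 2.82 (2.27 to 3.57), *Dll1* with 1.85 (0.80 to 4.36), *Dll3* with 1.46 (0.71 to 2.46) and *Jag1* with 0.66 (0.47 to 1.2). The neighbours in this order from *Hey1* to *Jag1* overlapped in their ranges. At the low end, *Notch1* had 0.20 (0.15 to 0.24), *Hes5* 0.19 (0 to 0.45) and *Notch2* 0.15 (0.067 to 0.25) CPM per kilobase. These 3 genes overlapped each other, and *Notch1* did not overlap *Jag1*. The receptors thus lay at percentiles 1.68 and 0.91 of the genes tested, while *Rbpj*, the DNA-binding partner of the cut receptor, had 3.36 CPM per kilobase (2.90 to 3.71). Using the longest transcript in place of all exons left each of the 9 genes in its place. The level of *Rbpj* depended on this choice and was 7.82 CPM per kilobase of its longest transcript.

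**Figure D1:**
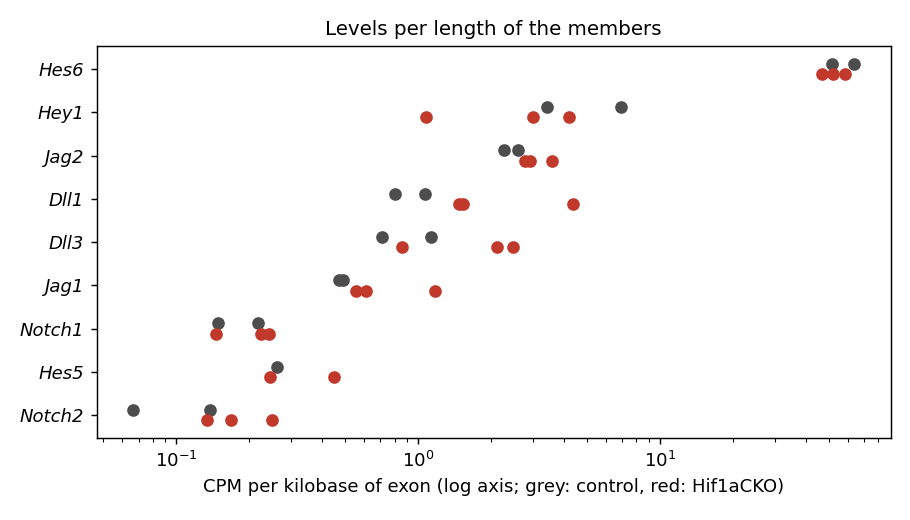
CPM per kilobase of exon for each of the 9 members analysed, on a log axis, with 1 point per library (grey, 2 control libraries; red, 3 *Hif1aCKO* libraries). *Hes6* lies apart from 46.9 to 63.6, and the receptors and *Hes5* lie at the low end. The libraries in which *Hes5* had 0 counts, control replicate 6 and *Hif1aCKO* replicate 4, are not drawn.

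To ask how loss of *Hif1a* changes the transcripts of sympathetic neurons, the genotypes were compared by the quasi-likelihood test of edgeR, adjusted after Benjamini and Hochberg for the 15032 genes tested. Calls needed an adjusted p under 0.05 together with a mean of 50 or more normalized counts and a log2 fold change beyond 0.3 in either direction. A normalized count is the count scaled to a common library size. Over all genes 0 were called (0%), with 1153 (7.67%) at an unadjusted p under 0.05, whereas DESeq2 called 60 of 15478 genes (0.388%), the likelihood ratio test of edgeR 40 and limma-voom 0. Among the 8 members tested, 0 were called by any of these tools and 0 had an unadjusted p under 0.05 in the quasi-likelihood test. *Notch1*, *Notch2*, *Dll3* and *Jag1* had means below 50 normalized counts and could not have been called. Of the 8 members, 6 were higher and 2 lower in mean in *Hif1aCKO* neurons, and their log2 fold changes had a median of 0.52, against 0.012 over all genes tested. All *Hif1aCKO* libraries were above both control libraries for 3 members (*Dll1*, *Jag1* and *Jag2*), against 12.9% of all genes tested, and below both for 0 members, against 12.9%. Without *Hif1aCKO* replicate 3, the library with glial transcripts, 6 members were again higher and 2 lower, and the groups did not overlap for 5 members higher and 1 lower, where 22.2% and 22.3% of genes tested did so. In bulk libraries, fewer cells of a type and less RNA per cell cannot be told apart.

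**Figure D2:**
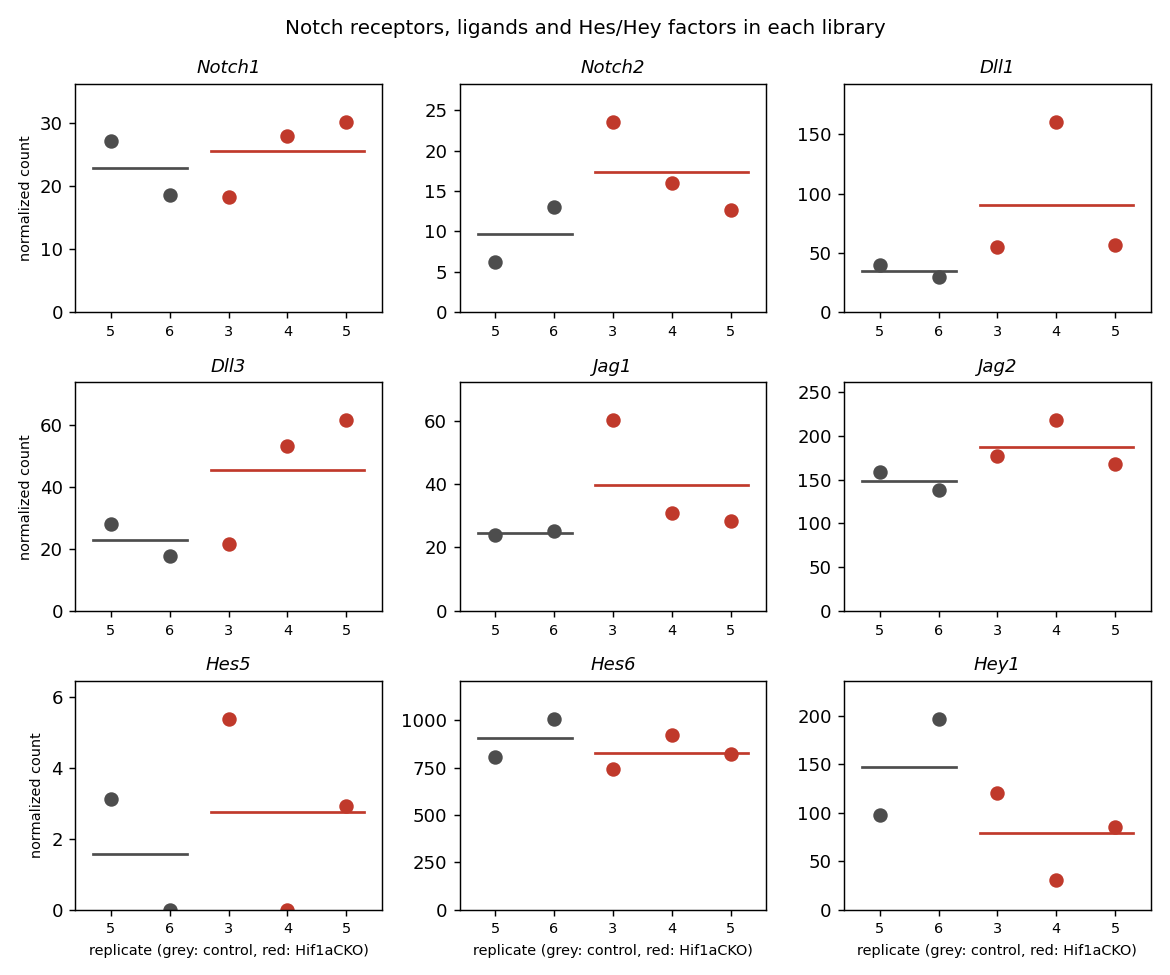
Normalized counts of the 9 members analysed, 1 panel per gene with its own axis starting at 0, against the replicate number (grey, control; red, *Hif1aCKO*; lines, group means). The ligands *Dll1*, *Jag1* and *Jag2* have all red points above both grey points, with *Dll1* highest at 161 in *Hif1aCKO* replicate 4 and *Jag1* highest at 60.0 in *Hif1aCKO* replicate 3.

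*Notch1* (ENSMUSG00000026923, GRCm38 chromosome 2, 26457903 to 26516663) encodes the receptor best known from neural progenitors. It had 27.1 and 18.6 normalized counts in the controls, against 18.2, 28.0 and 30.2 in the *Hif1aCKO* libraries. The lowest and the highest library were both *Hif1aCKO*, so the groups overlapped fully. The means were 22.8 ± 6.03 (SD, n = 2) and 25.5 ± 6.35 (SD, n = 3), and the log2 fold change was 0.16 with a 95% interval from -1.51 to 1.82 (adjusted p = 0.977, edgeR's quasi-likelihood test). Its sign was not stable, since it was -0.09 without control replicate 6. Antisense genes cover 7.5% (*0610009E02Rik*) and 2.91% (*Gm13568*) of its exonic bases, and the default settings of Rsubread, which the authors used, do not separate strands.

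*Notch2* (ENSMUSG00000027878, chromosome 3, 98013527 to 98150361), the second receptor of the set, was counted only 6 and 14 times in the controls, against 22, 16 and 13 times in the *Hif1aCKO* libraries. Normalized, these were 6.25 and 13.0 against 23.6, 16.0 and 12.7. The highest value was in *Hif1aCKO* replicate 3, and *Hif1aCKO* replicate 5 was below control replicate 6. The 6 counts have a 95% Poisson interval of 2.20 to 13.1 and the 22 counts one of 13.8 to 33.3, which cover counting error only. The log2 fold change was 0.84 with a 95% interval from -1.31 to 3.00 (adjusted p = 0.873 in the same edgeR test). It was 0.42 without control replicate 5 and 1.45 without control replicate 6. *Gm42820*, on the same strand, shares 5.02% of its exonic bases. The sum of both receptors was 33.3 and 31.5 normalized counts in the controls, against 41.8, 43.9 and 42.8 in the *Hif1aCKO* libraries. It rests on few raw counts, 32 and 34 against 39, 44 and 44, and was not tested. For each receptor alone the groups overlapped.

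Of the other receptors, *Notch3*, known from vascular mural cells, had 2 and 12 counts in control and 0, 0 and 2 in *Hif1aCKO* replicates 3, 4 and 5, too few to test. *Notch4*, known from endothelium, had 4 and 23 counts against 17, 1 and 23, and its log2 fold change of 0.11 changed sign with the library left out, from -0.62 to 1.70.

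*Dll1* (ENSMUSG00000014773, chromosome 17, 15367354 to 15376872) encodes a Delta-like ligand that differentiating neural cells display to their neighbours. Its normalized count was 39.6 and 29.7 in the controls, against 54.7, 161 and 56.4 in the *Hif1aCKO* libraries. Every *Hif1aCKO* library was above both controls, and replicate 4 was far above the others: its 161 raw counts have a 95% Poisson interval of 137 to 188, against 44.0 to 75.0 for the 58 counts of replicate 5. The means were 34.6 ± 7.00 (SD, n = 2) and 90.6 ± 60.7 (SD, n = 3). The log2 fold change was 1.39 (95% interval -0.051 to 2.82, standard error 0.63), the largest among the members (adjusted p = 0.664, edgeR's quasi-likelihood test). DESeq2 gave *Dll1* an unadjusted p under 0.05, the only member for which it did so, and an adjusted p of 0.527. Without *Hif1aCKO* replicate 4 the log2 fold change was 0.68. The antisense gene *A930024N18Rik* covers 20.5% of the exonic bases of *Dll1*.

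*Dll3* (ENSMUSG00000003436, chromosome 7, 28293553 to 28302238) encodes a divergent Delta-like protein that stays mostly inside the cell and is known to dampen Notch signalling. The values were 28.1 and 17.6 normalized counts in the controls, against 21.4, 52.9 and 61.3 in the *Hif1aCKO* libraries. *Hif1aCKO* replicates 4 and 5 were above both controls, whereas *Hif1aCKO* replicate 3 lay between the controls. Its log2 fold change was 0.98 with a 95% interval from -0.65 to 2.61 (adjusted p = 0.770, edgeR). Within each library, the log2 ratio of *Dll3* to *Dll1* counts, which does not depend on the scaling of libraries, was -0.49 and -0.74 in control, and -1.33, -1.59 and 0.12 in *Hif1aCKO* replicates 3, 4 and 5. The *Hif1aCKO* libraries lay on both sides of the controls (difference of means -0.32, p = 0.8 in a two-sided exact permutation test).

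*Jag1* (ENSMUSG00000027276, chromosome 2, 137081456 to 137116644) encodes a Jagged ligand widely used in vessels and progenitors. Control replicates 5 and 6 had 24.0 and 25.0 normalized counts, and *Hif1aCKO* replicates 3, 4 and 5 had 60.0, 31.0 and 28.2. The groups did not overlap, but *Hif1aCKO* replicates 4 and 5 were only slightly above the controls and replicate 3 carried most of the difference. The log2 fold change was 0.69 with a 95% interval from -0.85 to 2.23 (adjusted p = 0.848, edgeR), and 0.27 without *Hif1aCKO* replicate 3.

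*Jag2* (ENSMUSG00000002799, chromosome 12, 112907819 to 112929776), the other Jagged ligand, had the highest level per length of the 4 ligands. It had 158 and 138 normalized counts in the controls, against 177, 218 and 168 in the *Hif1aCKO* libraries. All *Hif1aCKO* libraries were above both controls, by a small margin for replicate 5. The means were 148 ± 14.2 (SD, n = 2) and 188 ± 26.4 (SD, n = 3), and the log2 fold change was 0.34 with a 95% interval from -0.32 to 1.004 (adjusted p = 0.816, edgeR). Leaving out each library in turn gave 0.22, without *Hif1aCKO* replicate 4, to 0.44. The log2 ratio of *Jag2* to *Jag1* was 2.698 and 2.44 in control and 1.55, 2.79 and 2.56 in *Hif1aCKO* libraries, lowest in replicate 3 (difference of means -0.27, exact permutation p = 0.9).

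The 4 ligands together had 249.98 and 211 normalized counts in the controls, against 313, 462 and 314 in the *Hif1aCKO* libraries. Each *Hif1aCKO* library was thus above both controls, with the highest value in replicate 4. That library also had the highest G2/M sum, 7184 CPM, and the groups were ordered the same way in both sums. The part of cycling cells in the ligand values was not tested. The log2 ratio of *Notch1* to *Notch2* counts was 2.03 and 0.50 in control and -0.36, 0.79 and 1.22 in *Hif1aCKO* libraries, and the groups overlapped (difference of means -0.71, exact permutation p = 0.5). With 2 libraries against 3 the smallest exact p is 0.1, and all 3 ratios had an adjusted p of 0.9.

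**Figure D3:**
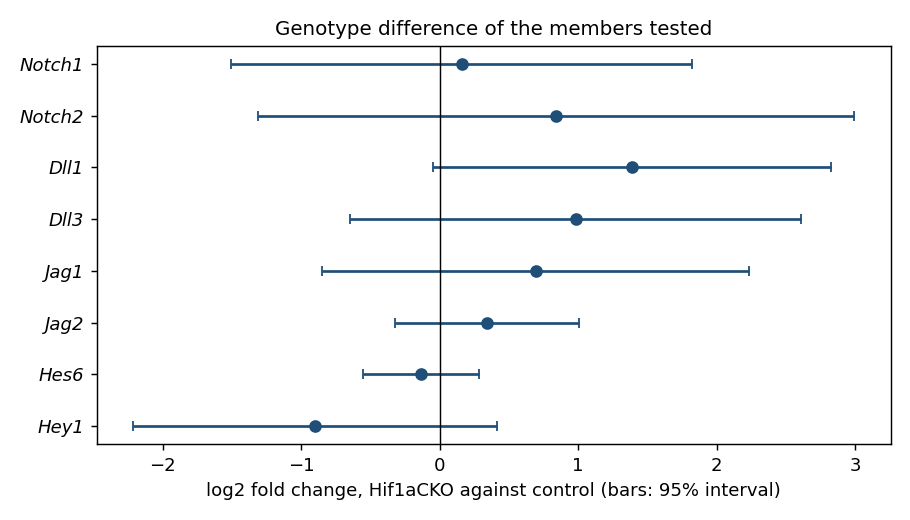
Log2 fold change of *Hif1aCKO* against control for the 8 members tested, with 95% intervals from edgeR's quasi-likelihood fit over 15032 genes. Every interval includes 0, and the estimates run from -0.90 for *Hey1* to 1.39 for *Dll1*.

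Of the other 4 ligand genes, *Dlk1* and *Dner* could be tested. *Dlk1*, a Delta-like protein of neuroendocrine precursors that lacks the domain by which Delta binds Notch, had the highest level per length among the ligand genes, 29.9 CPM per kilobase. It had 1460 and 1529 normalized counts in the controls, against 933, 1782 and 1703 in the *Hif1aCKO* libraries. The lowest and the highest library were both *Hif1aCKO*, and its log2 fold change was -0.02. *Dner*, a Delta- and Notch-like neuronal surface protein, had 129 and 166 normalized counts in the controls, against 60.0, 0.999 and 65.2 in the *Hif1aCKO* libraries. All *Hif1aCKO* libraries were below both controls and replicate 4 held a single count. It differed by -1.81 on the log2 scale (standard error 0.98, adjusted p = 0.707, edgeR), and -1.24 without *Hif1aCKO* replicate 4. *Dll4*, an endothelial ligand, had 17 and 6 counts against 9, 2 and 2, and *Dlk2* had 9 and 1 against 10, 2 and 10. Neither was tested.

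*Hes6* (ENSMUSG00000067071, chromosome 1, 91411483 to 91414038) had 809 and 1006 normalized counts in the controls, against 742, 923 and 820 in the *Hif1aCKO* libraries. The groups overlapped, with the lowest value in *Hif1aCKO* replicate 3 and the highest in control replicate 6. The means were 908 ± 139 (SD, n = 2) and 828 ± 90.6 (SD, n = 3). Its log2 fold change was -0.13 with a 95% interval from -0.55 to 0.29 (adjusted p = 0.903, edgeR), the narrowest interval among the members, and it was 0.03 without control replicate 6.

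*Hey1* (ENSMUSG00000040289, chromosome 3, 8663359 to 8667256) varied widely between libraries of the same genotype. It had 97.9 and 197 normalized counts in the controls, against 120, 31.0 and 85.6 in the *Hif1aCKO* libraries. *Hif1aCKO* replicate 3 lay between the controls, replicate 5 just below the lower control and replicate 4 far below it. The means were 147 ± 69.8 (SD, n = 2) and 78.9 ± 44.9 (SD, n = 3), and the log2 fold change was -0.90 with a 95% interval from -2.22 to 0.41 (adjusted p = 0.735, edgeR). It was -0.32 without control replicate 6, -0.52 without *Hif1aCKO* replicate 4 and -1.34 without *Hif1aCKO* replicate 3. The library with the fewest *Hey1* counts, *Hif1aCKO* replicate 4, was also the one with the most *Dll1* counts. That library also held 17 counts of *Nrarp*, a feedback inhibitor of Notch, against 0 or 1 elsewhere. A relation between these genes was not tested.

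*Hes5* (ENSMUSG00000048001, chromosome 4, 154960923 to 154962371), a main Notch target of neural progenitors, had 3 and 0 counts in the controls, against 5, 0 and 3 in the *Hif1aCKO* libraries. Both groups held a library at 0, for which the counting floor of 3 counts applies, so no difference was detectable at this depth. The antisense gene *Gm20421* covers 31.8% of its exonic bases. *Hes6* stood at the top and *Hes5* near the bottom of the order by level per length, and the bases before their start sites are shown for that contrast. Both sequences are the 250 bases upstream of the RefSeq start site (GRCm38.p6), read 5′ to 3′ on the gene's strand: chr4:154960673-154960922 on the plus strand for *Hes5*, and chr1:91414039-91414288 on the minus strand for the first of 2 windows of *Hes6*. Capitals mark TGGGAA, the core of the RBPJ binding motif, or TTCCCA, the same letters read on the other strand.
Hes5: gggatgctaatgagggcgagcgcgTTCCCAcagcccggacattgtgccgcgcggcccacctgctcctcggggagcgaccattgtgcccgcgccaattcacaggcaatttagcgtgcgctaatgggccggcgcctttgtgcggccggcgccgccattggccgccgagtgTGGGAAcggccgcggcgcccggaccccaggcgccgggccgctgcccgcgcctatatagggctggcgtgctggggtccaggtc
Hes6: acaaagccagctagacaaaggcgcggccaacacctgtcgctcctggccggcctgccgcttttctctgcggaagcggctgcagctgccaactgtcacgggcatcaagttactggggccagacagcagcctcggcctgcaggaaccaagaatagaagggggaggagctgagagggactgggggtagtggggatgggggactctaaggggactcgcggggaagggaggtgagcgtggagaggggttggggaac

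The *Hes5* window held this core on each strand, at bases 226 to 221 and 82 to 77 before the start site, and the *Hes6* window held none. RefSeq windows were matched for 8 of the 10 members, 10 windows in all, and *Hes1* and *Hey1* were not matched. The RBPJ core was in none of the other 9 windows, and 21.6% of all 32851 mouse windows hold it in the 250 bases upstream. The letters ACGTG, 1 form of the core of the HIF motif, searched on both strands, were in 0 of the 10 windows, against 16.6% of all windows. The form GCGTG was not searched, and both sequences printed above hold it. The 0 thus covers ACGTG only. CACNAG, the N-box bound by Hes proteins, was found on one or the other strand in *Notch1*, in *Notch2* and in the second window of *Hes6*, against 36.7% of all windows. These matches describe the letters only and are not evidence of binding.

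Further Notch-induced genes had no counts in either control library. *Heyl*, a Hey-related repressor, had 0 and 0 counts in the controls, against 36, 10 and 0 in the *Hif1aCKO* libraries. *Hey2*, another of this family, had 0 and 0 against 14, 3 and 0, and *Nrarp*, a feedback inhibitor of Notch, 0 and 0 against 1, 17 and 1. *Heyl* and *Hey2* were highest in *Hif1aCKO* replicate 3 and at 0 in replicate 5, and *Nrarp* had nearly all its counts in replicate 4. Set against a floor of 3 counts per control library, the *Hif1aCKO* mean was 5.48 times the floor for *Heyl*, 2.03 for *Hey2* and 2.15 for *Nrarp*. These ratios take the *Hif1aCKO* mean as exact, and each rests mainly on 1 library. The means were 16.2 ± 20.0 normalized counts for *Heyl*, 6.00 ± 7.94 for *Hey2* and 6.34 ± 9.21 for *Nrarp* (SD, n = 3). *Hif1aCKO* replicate 5, with 0, 0 and 1 counts, was not above the floor. *Heyl* passed the filter on low counts only through the *Hif1aCKO* libraries, so its test is not given. The antisense gene *Gm38287* covers 79.4% of the exonic bases of *Nrarp*.

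*Hif1aCKO* replicate 3, the library with 191 CPM of glial markers, had the highest values of *Jag1*, *Notch2*, *Hes5*, *Heyl* and *Hey2*. *Notch1* and *Hes6* were at their lowest there, with 18.2 and 742 normalized counts. For *Hes5* the highest value was only 5 counts, against 3 in control replicate 5 and *Hif1aCKO* replicate 5. Their 95% Poisson intervals, 1.62 to 11.7 and 0.62 to 8.77, overlap. *Dll1*, *Dll3*, *Jag2*, *Hey1* and *Nrarp* were highest in other libraries. In *Hif1aCKO* replicate 3 all 7 glial markers in the table had counts, and 2 or 3 of the 7 were at 0 in each of the others. The part of glial cells in these values was not tested.

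**Figure D4:**
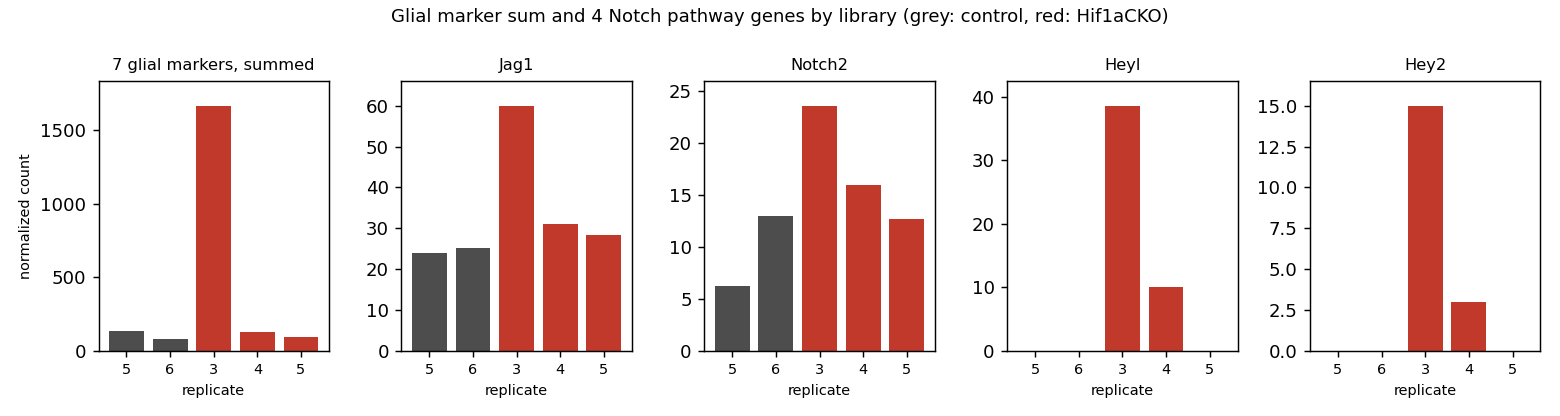
Normalized counts by library for the sum of 7 glial markers and for *Jag1*, *Notch2*, *Heyl* and *Hey2* (bars from 0; grey, control replicates 5 and 6; red, *Hif1aCKO* replicates 3, 4 and 5). The genes drawn were taken from those highest in *Hif1aCKO* replicate 3, and its bar is therefore the tallest in each of their panels. It is also the tallest for the glial sum. *Heyl* and *Hey2* have no counts in either control library.

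The rest of the pathway was described by lists of genes set by role. Over all Notch lists, members included, 62 genes were tested, 38 higher and 24 lower in mean in *Hif1aCKO* neurons, and the median of their log2 fold changes was 0.12 (0.012 over all genes tested). These counts include *Heyl*, without which 61 genes were tested, 37 higher and 24 lower, with a median of 0.11. No gene was called by edgeR, DESeq2 or limma-voom, and 5 of the 61 had an unadjusted p under 0.05, 2 higher and 3 lower, where 7.67% of all genes tested had one. The groups did not overlap for 9 genes higher and 5 lower, against 12.9% of all genes tested in each direction.

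Genes that cut the receptor were mostly lower in mean in *Hif1aCKO* neurons. Of the 9 genes of the cleavage list, which holds the ADAM proteases and the gamma-secretase subunits, 8 were lower and 1 higher in mean, with a median log2 fold change of -0.38, and 3 of the lower ones had groups without overlap, against 12.9% of all genes tested in this direction. *Ncstn*, the subunit of gamma-secretase that receives the substrate, had 1297 and 1125 normalized counts in the controls, against 1138, 812 and 545 in the *Hif1aCKO* libraries, with *Hif1aCKO* replicate 3 between the controls (log2 fold change -0.54, adjusted p = 0.699, edgeR). Without *Hif1aCKO* replicate 3, all 9 genes were lower in mean, whereas 7 were lower and 2 higher without *Hif1aCKO* replicate 4. The median of the list was -0.46 to -0.26 when 1 library was left out, nearest to 0 without control replicate 6.

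In the list of receptor glycosylation, 3 of 5 genes were higher and 2 lower, with a median of 0.12 that turned to -0.27 without *Hif1aCKO* replicate 5 and was 0.64 without control replicate 6. *Pofut1*, which adds O-fucose to Notch, had 59.4 and 25.0 normalized counts in the controls, against 76.1, 123 and 112 in the *Hif1aCKO* libraries, all above both controls (log2 fold change 1.30, adjusted p = 0.626, edgeR). *Poglut1*, which adds O-glucose, had 1149 and 947 against 717, 794 and 731, all below both controls (log2 fold change -0.49, adjusted p = 0.621, edgeR). Both enzymes modify the EGF-like repeats of the receptor, and their values lay on opposite sides of 0.

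Among 15 genes of endocytosis and ubiquitin ligases, 9 were higher and 6 lower, with a median of 0.053. Its sign was not stable, since it was -0.056 without *Hif1aCKO* replicate 3 and -0.027 under limma-voom, with 7 higher and 8 lower in both, and 0.22 without *Hif1aCKO* replicate 5. The smallest p-values belonged to *Dtx4*, a Deltex ubiquitin ligase, with a log2 fold change of 1.07 (adjusted p = 0.621, edgeR), and to *Numbl*, a relative of the Notch inhibitor *Numb*, with 1.09 (adjusted p = 0.712, edgeR). *Dtx4* had 152 and 198 normalized counts in control and 525, 205 and 373 in *Hif1aCKO* libraries, and the groups did not overlap.

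In the nucleus, 5 of 8 genes of the activation complex were higher and 3 lower, with a median of 0.17, and 4 were higher and 4 lower without control replicate 5, with a median of -0.042. *Ep300*, a histone acetyltransferase, and *Maml3*, a Mastermind-like coactivator, had the smallest p-values (log2 fold changes 0.50 and 0.42, adjusted p = 0.716 and 0.777, edgeR). *Rbpj* had a log2 fold change of -0.03, with 359 and 401 normalized counts in the controls, against 324, 378 and 414 in the *Hif1aCKO* libraries. Of 13 corepressor genes, 12 were higher and 1 lower, with a median of 0.35. It was 0.18 without *Hif1aCKO* replicate 4, with 10 higher and 3 lower, and 0.55 without *Hif1aCKO* replicate 3. The lower one of the 13 was *Tle4*, a Groucho-type corepressor that Hes proteins recruit (log2 fold change -0.61, adjusted p = 0.637, edgeR), with 816 and 1190 normalized counts against 855, 575 and 537, where the groups overlapped. Its relative *Tle1* had a log2 fold change of 0.59 (adjusted p = 0.698, edgeR).

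**Figure D5:**
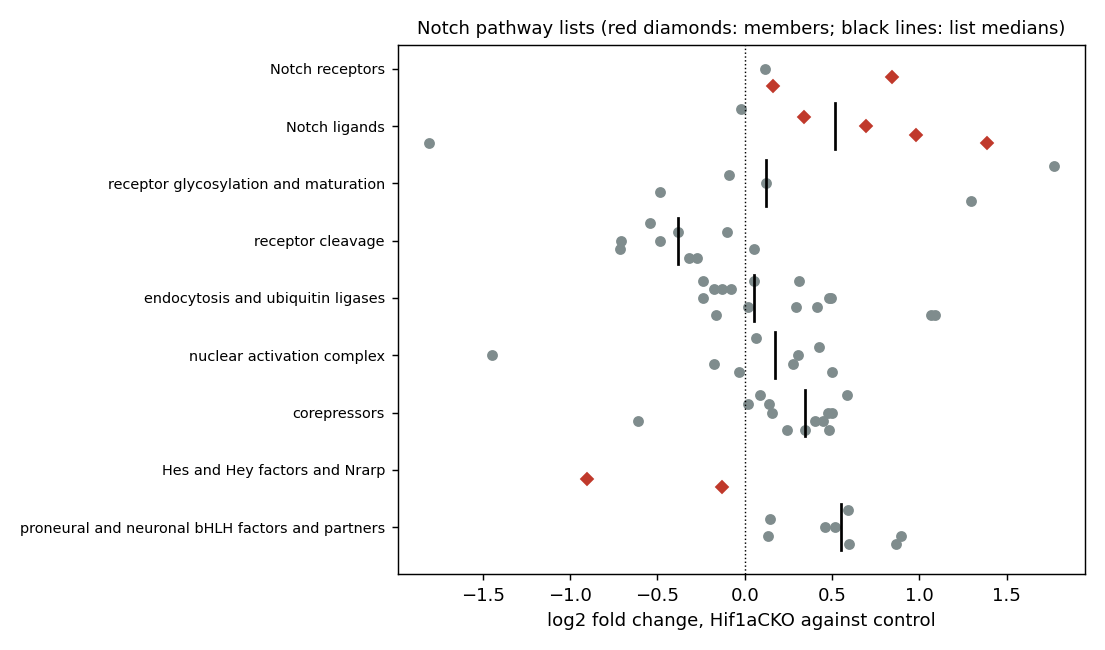
Log2 fold change of *Hif1aCKO* against control for each tested gene of the Notch lists and of the proneural bHLH list, 1 row per list (red diamonds, members; grey circles, other genes; black lines, medians of lists with more than 3 tested genes; vertical offsets within a row carry no value). The cleavage list has 8 of 9 genes below 0, the corepressors have 12 of 13 above 0, and *Heyl*, with 0 counts in both controls, is not drawn.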

How the data were processed

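RNA-seq libraries of sorted mouse sympathetic neurons (2 control, 3 *Hif1aCKO*) were analysed. The authors trimmed reads with cutadapt (version 1.18), removed ribosomal and vector reads with Bowtie (version 1.2.2) and SortMeRNA, mapped to GRCm38 with STAR (version 2.7.0c), and used Rsubread with its default settings, which do not use strand, to count reads on genes, leaving out multi-mapping reads. The deposited values are raw counts, not normalized, of 20224 genes. Totals were 8517433 and 9700887 in the controls, against 8254211, 8502859 and 8871935 in *Hif1aCKO* libraries 3, 4 and 5. Low counts limit precision, and intervals cover counting error only.

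Genes were named from GENCODE M21 (GRCm38), which holds 20195 of the identifiers. The genotypes were compared with edgeR (version 4.0.16, R version 4.3.3) by its quasi-likelihood test after TMM normalization (factors 0.974 to 1.03) and filterByExpr, with Benjamini-Hochberg adjustment over 15032 genes and no covariate. The biological coefficient of variation was 0.384. Ratios within libraries used a pseudocount of 0.5 counts and a two-sided exact permutation test. The test was checked on simulated data. Alternatives were DESeq2 (version 1.42.0), RLE or upper-quartile normalization, the likelihood ratio test, limma-voom (limma version 3.58.1), other filters on low counts and leaving out each library. Promoter windows are from RefSeq.

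The members and lists were chosen with earlier results of these data known. Genes named were the members, *Hif1a*, the other receptors, ligands and *Hes* and *Hey* genes, the 2 genes with the smallest p of each other list and defining markers, of which some are not reported here. Untested receptor, ligand and *Hey* genes, *Rbpj*, and *Neurod1* and *Tcf3* were added after their values were seen. *Hes1*, *Hes2*, *Hes3*, *Hes7*, *Helt*, *Lfng* and *Rbpjl* were not analysed here, so 3 ratios to *Hes1* were not computed, and proteins were not compared. Plots were made with matplotlib (version 3.10.9) in Python (version 3.11.15) with pandas (version 2.3.3).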

Additional observations from a re-analysis of the deposited data

How the results depend on the processing

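No member and no Notch pathway gene was called under any of the 12 alternatives tried. Over all genes, DESeq2 called 60 and the likelihood ratio test 40, against 0, and leaving out 1 library gave 0 to 4, with 4 only without control replicate 5. Leaving out 1 library raised the share of genes whose groups do not overlap from 25.7% to between 37.4% and 50.7%, since fewer libraries have to be apart. The median log2 fold change of the Notch lists was 0.12, and 0.072 to 0.22 when 1 library was left out, highest without *Hif1aCKO* replicate 3. Beside these, the medians of the glycosylation, endocytosis and activation complex lists changed sign when 1 library was left out, and that of the endocytosis list also under limma-voom. The signs of *Notch2*, the 4 ligand members, *Hey1* and *Dner* held in every alternative that tested them. Signs turned for *Dlk1* under upper-quartile normalization (0.019), for *Notch4* under limma-voom (-0.30), and when 1 library was left out, where the lowest and highest values were -0.094 and 0.45 for *Notch1*, -0.28 and 0.028 for *Hes6*, -0.62 and 1.70 for *Notch4*, and -0.18 and 0.22 for *Dlk1*. The group differences in log2 ratio then ranged from -0.85 to 0.0059 for *Dll3* to *Dll1*, from -0.52 to 0.10 for *Jag2* to *Jag1*, and from -1.48 to 0.050 for *Notch1* to *Notch2*. Apart from the count of libraries, the cause of these shifts was not tested. No paired analysis was possible because the groups share only replicate number 5. With 1 control left, that library is assumed to vary like the other group. Counts of at most 22 for *Notch2* and 5 for *Hes5* limit what could be detected.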

Other observations

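Proneural and neuronal bHLH factors, which Hes and Hey repressors are known to hold back, were listed with their partners. Of 15 genes, 8 were in the table and tested, and all 8 were higher in mean in *Hif1aCKO* neurons (median log2 fold change 0.55). None was called by edgeR's quasi-likelihood test or by DESeq2. In the edgeR test 2 had an unadjusted p under 0.05, against 7.67% of all genes tested. The groups did not overlap for 5 of them, against 12.9% of all genes tested in this direction. *Hand2*, which maintains noradrenergic identity, had 1292 and 1090 normalized counts in controls 5 and 6, against 1486, 1974 and 1911 in *Hif1aCKO* libraries 3, 4 and 5, without overlap (log2 fold change 0.59, adjusted p = 0.599 in edgeR's quasi-likelihood test). *Tcf12*, an E protein partner of these factors, had 573 and 501 against 744, 830 and 732 (log2 fold change 0.52, adjusted p = 0.621, edgeR). *Neurod1* and *Tcf3* had log2 fold changes of 0.90 and 0.60 (adjusted p = 0.691 and 0.656, edgeR). Without *Hif1aCKO* replicate 4, 7 of the 8 genes were higher and 1 lower. The median of the list was 0.39 to 0.74 when 1 library was left out, lowest without control replicate 6. The G2/M sum was also higher in all *Hif1aCKO* libraries, and the part of cycling cells in these values was not tested.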
